A study of Rattus norvegicus with 7 samples.

Results

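Acetylated regions of S16 cells that hold both the orphan nuclear receptor NR2F2 and the zinc finger protein YY1, but not the retinoid X receptor RXRG, are described here. S16 is an immortalised Schwann cell line of the rat. The regions were chosen from the peak lists themselves. A peak of acetylated histone H3 lysine 27 (H3K27ac) was taken when at least 1 bp of it was shared with an NR2F2 peak and at least 1 bp with a YY1 peak, and when no base was shared with an RXRG peak. Mitochondrial peaks were left out. The rule gave 5278 regions of 99514 H3K27ac peaks (5.30%). NR2F2, YY1, RXRG and TEAD1 had been mapped in untreated S16 cells by CUT&RUN, which cuts DNA loose around the sites where an antibody has bound, and H3K27ac in the same line by ChIP-seq. SREBP1 had been mapped by ChIP-seq in wild-type sciatic nerve at postnatal day 15, with an input library that was not analysed here. Each of the 6 peak lists came from 1 library, so that no replicate error exists and no test between libraries could be made. Whole nerve holds fibroblasts, perineurial and blood vessel cells beside Schwann cells, and the nerve and the cell line differ in more than the factor mapped.

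NR2F2 (COUP-TFII) binds direct repeats of the nuclear receptor half-site, most often as a homodimer, and can repress or activate transcription. RXRG is the gamma form of the receptor with which many other nuclear receptors form heterodimers. YY1 recognises its own short motif at promoters and enhancers, and in Schwann cells of the mouse it is required for peripheral myelination. TEAD1 brings YAP and TAZ, the effectors of the Hippo pathway, to DNA, and SREBP1 is a regulator of fatty acid synthesis genes, which myelinating Schwann cells use heavily. H3K27ac marks active promoters and enhancers. The question behind the NR2F2 and H3K27ac libraries was whether NR2F2 lies at SOX10-bound enhancers of S16 cells and which enhancers are active there. SOX10 sites were not analysed here.

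The regions were 37.2% of the 14172 acetylated regions with NR2F2 and YY1, and the remaining 8894 also held RXRG. They serve below as one comparison, beside 13753 acetylated regions with YY1 and neither nuclear receptor. The regions chosen had a median H3K27ac width of 1334 bp (quartiles 856 and 2044.5 bp). It was 1124 bp where RXRG was present too, 1238 bp with YY1 and neither receptor, and 737 bp over all H3K27ac peaks. A wide region meets more peaks, so width takes part in the choice and is given as a description. By position, few regions lay near the limits of the rule. RXRG ended within 50 bp outside the acetylated peak in 9 of the 5278, and covered 50 bp or less of it in 25 of the 8894 regions counted as holding RXRG. NR2F2 covered 50 bp or less of the acetylated peak in 20 of the 5278 regions, against a median of 307 bp, and YY1 in 15, against a median of 576 bp. Just outside the rule, an NR2F2 peak lay within 100 bp of 20 regions with YY1 and neither receptor, and a YY1 peak within 100 bp of 15 regions with NR2F2 and neither YY1 nor RXRG.

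NR2F2 and YY1 peaks overlapped in most of these regions, although the rule asked only for the same acetylated region. In 5029 of the 5278 regions (95.3%, 95% Wilson interval 94.7 to 95.8%) an NR2F2 peak overlapped a YY1 peak. The share was 98.0% (97.7 to 98.3%) where RXRG was also present. Without RXRG the nearest NR2F2 and YY1 peaks had median widths of 317 and 579 bp, in regions with a median of 1334 bp. How much overlap such widths and a central position alone would give was not tested. The midpoints of the nearest NR2F2 and YY1 peaks were 80.5 bp apart in the median (quartiles 33 and 160 bp) without RXRG and 75.5 bp apart (29 and 162 bp) with it. They lay within 100 bp of each other in 57.6% of the 5278 regions and within 250 bp in 87.3%. Intervals here and below cover counting error over regions only, not differences between cultures, and neighbouring regions are not independent.

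**Figure D1:**
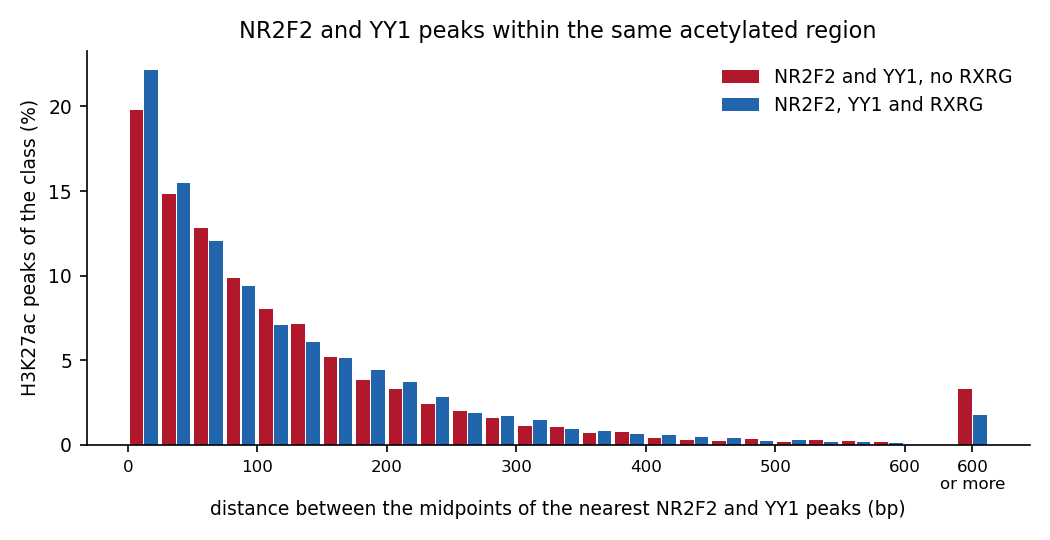
Distance in bp between the midpoints of the nearest NR2F2 and YY1 peaks of an acetylated region (horizontal axis, classes of 25 bp with all distances of 600 bp and more in the last pair of bars) against the percentage of regions. Red bars are the 5278 regions without RXRG and blue bars the 8894 with RXRG; in both classes the first bar is the highest, and the medians were 80.5 and 75.5 bp.

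The NR2F2 peak was the smaller of the pair. In 80.6% of the 5278 regions the YY1 peak was wider than the NR2F2 peak next to it, with medians of 317 bp for NR2F2 and 579 bp for YY1. The NR2F2 peak lay wholly inside the YY1 peak in 3093 regions (58.6%), and the reverse held in 459 (8.70%). Where RXRG was present as well, the NR2F2 peak was wider, at a median of 470 bp beside 633 bp for YY1. It lay wholly inside the YY1 peak in 44.7% of those regions, and the YY1 peak lay inside it in 27.3%. Most regions without RXRG were simple. They held exactly 1 peak of each factor in 4634 cases (87.8%), 2 NR2F2 peaks in 230 and 3 NR2F2 peaks in 3, and none held 4. Among regions with RXRG, 23 held 4 or more NR2F2 peaks.

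In 249 regions NR2F2 and YY1 shared the acetylated peak without touching. These regions were long, with a median of 1870 bp against 1313 bp for the 5029 with direct overlap. The median gap between the nearest pair was 474 bp, and it was under 200 bp in 62 of them. TEAD1 was present in 52.6% of the 249 (46.4 to 58.7%) and SREBP1 in 33.3% (27.8 to 39.4%). In the 5029 with direct overlap the shares were 63.9% (62.6 to 65.2%) and 47.1% (45.7 to 48.4%). Regions where the pair did not meet thus had lower shares of both factors in spite of their greater length, with intervals that do not overlap. This was not particular to regions without RXRG. With RXRG, TEAD1 was in 33.7% (27.2 to 40.9%) of the 178 regions without direct overlap and 62.8% (61.8 to 63.8%) of those with it. SREBP1 was there in 26.4% (20.5 to 33.3%) and 40.8% (39.8 to 41.9%). This split was chosen after seeing the data.

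NR2F2 and YY1 both lay towards the middle of the acetylated peak. The NR2F2 midpoint lay in the central 50% of the H3K27ac peak in 71.5% of the 5278 regions and the YY1 midpoint in 75.2%. With RXRG the shares were 77.8% and 80.9%. YY1 was the nearer of the pair to the centre in 55.0% of the regions without RXRG (53.6 to 56.3%, 5266 regions without ties). The NR2F2 midpoint fell outside the acetylated peak in 140 regions (2.65%), against 1.05% of those with RXRG.

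TEAD1, which the rule did not use, was present in 3344 of the 5278 regions, or 63.4% (62.0 to 64.6%), against a background of 19.0% over all H3K27ac peaks. The share was 62.2% (61.2 to 63.2%) where RXRG was also present and 48.3% (47.4 to 49.1%) in regions with YY1 and neither receptor. The difference from regions with RXRG was 1.12 percentage points, with an interval from -0.52 to 2.77 that holds 0. Against regions with YY1 alone of the 3 factors it was 15.1 points (13.6 to 16.6). NR2F2 without YY1 went with little TEAD1, in 9.99% of regions that held RXRG and in 5.60% of those that did not. None of these differences was tested, since each factor has 1 library.

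SREBP1 in nerve, also not used by the rule, was present in 2450 regions, or 46.4% (45.1 to 47.8%), against a background of 15.0%. This was above the 40.5% (39.5 to 41.6%) of regions that also held RXRG by 5.87 points (4.19 to 7.56). It was above the 33.0% (32.3 to 33.8%) of regions with YY1 and neither receptor by 13.4 points (11.8 to 14.9). Without YY1, SREBP1 was rare at NR2F2, in 1.55% of regions with RXRG and 1.60% of those without. The SREBP1 sites come from another tissue. Each factor, also within S16 cells, was mapped in its own library, so that joint occupancy of the same DNA molecules was not measured for any of them.

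**Figure D2:**
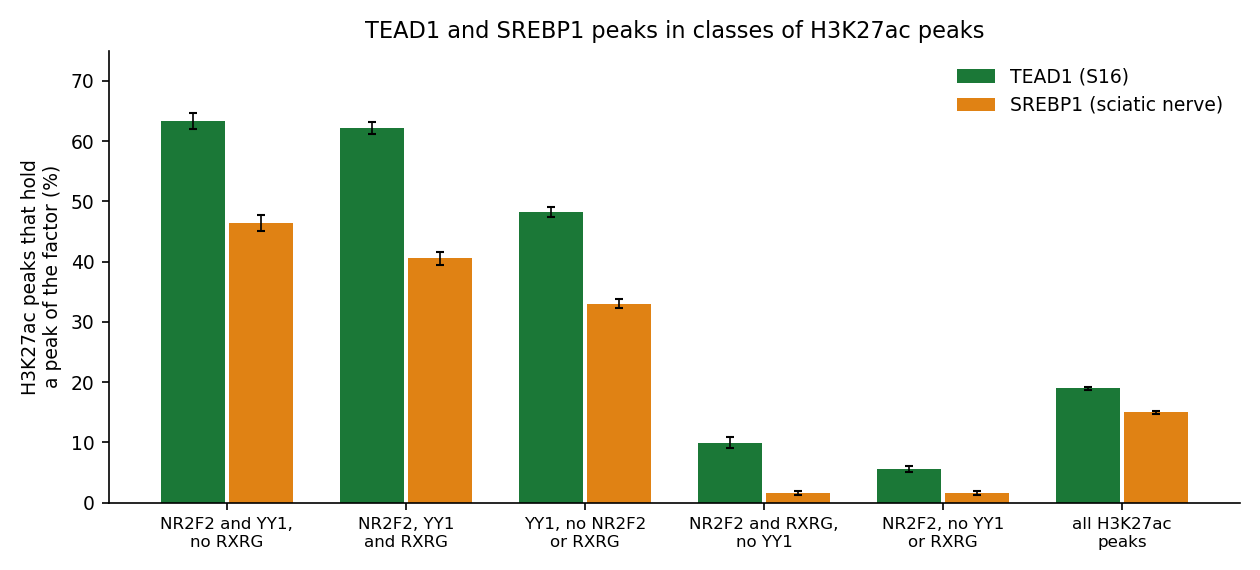
Percentage of H3K27ac peaks that held a TEAD1 peak (green, S16) or an SREBP1 peak (orange, sciatic nerve) in the regions with NR2F2 and YY1 without RXRG (leftmost pair), in 4 other classes and over all H3K27ac peaks. Bars start at 0 and whiskers are 95% Wilson intervals; the leftmost pair stands at 63.4% and 46.4%, and both classes of NR2F2 without YY1 stand under 10% for TEAD1.

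By TEAD1 and SREBP1 the 5278 regions fell into 4 subgroups of unequal size. Both factors were present in 1715 regions (32.5%, against 7.35% of all H3K27ac peaks), TEAD1 without SREBP1 in 1629 (30.9%) and SREBP1 without TEAD1 in 735 (13.9%). Neither was present in 1199 (22.7%, against 73.4% of all H3K27ac peaks). In regions that also held RXRG the shares in the same order were 28.6, 33.6, 11.9 and 25.8%. Without RXRG, both together (interval 31.2 to 33.8%) and TEAD1 only (29.6 to 32.1%) had overlapping intervals. With RXRG, TEAD1 only was the most frequent, at 33.6% (32.6 to 34.6%), against 28.6% (27.7 to 29.6%) for both. SREBP1 was found in 51.3% (49.6 to 53.0%) of the regions with TEAD1 and 38.0% (35.9 to 40.2%) of those without TEAD1. Regions with RXRG had a gap of the same kind, with SREBP1 in 46.0% (44.7 to 47.3%) of those with TEAD1 and 31.6% (30.0 to 33.2%) of those without TEAD1. With YY1 and neither receptor, the shares were 34.5% (33.4 to 35.7%) with TEAD1 and 31.7% (30.6 to 32.8%) without it.

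The subgroups differed in the size of the YY1 peak more than in that of the NR2F2 peak. Where both TEAD1 and SREBP1 were present, the median YY1 peak was 703 bp wide, and it was 600 bp with TEAD1 only and 580 bp with SREBP1 only. It was 318 bp in the 1199 regions with neither. NR2F2 peaks had medians of 342, 311, 287 and 309 bp in the same order, so that the NR2F2 peak was nearly as wide with neither factor as with TEAD1 only. The acetylated peak was also shorter with neither factor, at a median of 880 bp, against 1560 bp with both, 1727 bp with TEAD1 only and 1055 bp with SREBP1 only. The larger difference in YY1 was not particular to regions without RXRG. With RXRG the YY1 medians were 843, 515, 694 and 390.5 bp for both factors, TEAD1 only, SREBP1 only and neither. The NR2F2 medians there were 483, 531, 378 and 432 bp. Without scores in these lists, width is the only measure of a peak that they give, and its relation to occupancy was not tested.

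Most TEAD1 peaks of these regions overlapped the NR2F2 and YY1 peaks, as they did in regions with RXRG. Of the 3623 TEAD1 peaks in the 5278 regions, 3038 (83.9%, 82.6 to 85.0%) overlapped both a YY1 and an NR2F2 peak, 496 (13.7%) overlapped YY1 only and 14 (0.386%) NR2F2 only. Only 75 (2.07%) met neither. Their midpoints were a median of 79.5 bp from the nearest YY1 midpoint and 108 bp from the nearest NR2F2 midpoint, and 62.1% (60.5 to 63.6%) were nearer YY1 than NR2F2. In regions with RXRG, 87.0% (86.1 to 87.8%) of TEAD1 peaks overlapped both. TEAD1 met YY1 in 97.5% (97.0 to 98.0%) of cases without RXRG and in 96.4% (95.9 to 96.8%) with YY1 and neither receptor, where the median distance to YY1 was 77.5 bp. In regions with RXRG, TEAD1 lay nearer YY1 in 56.4% (55.2 to 57.7%) of cases, and 118 TEAD1 peaks (1.92%) met NR2F2 without YY1.

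SREBP1 peaks of nerve were placed more loosely. Of 2489 in the 5278 regions, 1762 (70.8%, 69.0 to 72.5%) overlapped both YY1 and NR2F2, 548 (22.0%) overlapped YY1 only and 29 (1.17%) NR2F2 only, and 150 (6.03%) met neither. Their midpoints were a median of 211.5 bp from YY1 and 252.5 bp from NR2F2. In regions with RXRG the medians were 307 and 329 bp, although 70.7% of the SREBP1 peaks there also overlapped both factors. With YY1 and neither receptor, 14.5% of SREBP1 peaks met no YY1 peak in spite of lying in the same acetylated region, and the median distance to YY1 was 213 bp. All SREBP1 peaks were deposited at 485 bp, so that their own width cannot vary between these classes.

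Both shares varied with the length of the acetylated peak. In 4 width classes of about equal size over all H3K27ac peaks, TEAD1 was present in 29.6, 38.5, 51.4 and 78.5% of the regions with NR2F2 and YY1 without RXRG, from the narrowest class (231 to 367 bp) to the widest (1234 to 9902 bp). With RXRG the 4 shares were 56.1, 53.6, 55.7 and 72.1%. The similar total of TEAD1 with and without RXRG therefore joined 2 unlike patterns. With YY1 and neither receptor the shares were 29.1, 29.8, 39.8 and 61.0%, and over all H3K27ac peaks 3.35, 10.2, 19.8 and 42.6%. A rise with width was thus not particular to the regions without RXRG. In the narrowest class TEAD1 was at 29.6% (24.4 to 35.5%) without RXRG, against 56.1% (49.6 to 62.3%) with it. In the widest class it was at 78.5% (76.9 to 79.9%) without RXRG, against 72.1% (70.7 to 73.5%) with it. The widest class held 54.6% of the regions without RXRG and 42.1% of those with it.

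SREBP1 followed a curve in these regions rather than a steady climb. Its share was 3.95, 35.3, 57.2 and 47.7% over the 4 width classes without RXRG, and 4.35, 16.04, 41.3 and 53.0% with RXRG. It was 14.4, 29.8, 36.5 and 34.0% with YY1 and neither receptor, and 2.39, 8.09, 19.7 and 29.8% over all H3K27ac peaks. In finer classes, chosen after these values were seen, the highest share without RXRG was 57.5% (53.7 to 61.1%) at 750 to 999 bp, close to the 56.7% (53.1 to 60.2%) of the next class. At 750 to 999 bp it was 35.0% (32.7 to 37.3%) with RXRG and 37.9% (35.8 to 40.0%) with YY1 and neither receptor. At 500 to 749 bp the shares were 43.8% (39.7 to 47.9%) without RXRG, against 18.3% (16.4 to 20.5%) with it. With RXRG the peak of the curve came at 1250 to 1499 bp, where SREBP1 reached 57.5% (54.7 to 60.2%), and where regions without RXRG stood at 50.4% (46.3 to 54.6%). The order of the 2 classes thus turned between 1000 and 1499 bp, but their intervals overlapped in every finer class from 1500 bp on. At 1500 to 1999 bp the shares were 49.8% (46.5 to 53.0%) without RXRG and 54.6% (51.9 to 57.3%) with it. At 3000 bp and more they were 46.0% (41.3 to 50.7%) without RXRG and 40.6% (35.5 to 45.9%) with it. The surplus of SREBP1 in regions without RXRG, 5.87 points over all widths, lay in regions of middle length, and in the widest class SREBP1 stood lower without RXRG (47.7%) than with it (53.0%). Under 500 bp SREBP1 was present in 9.33% (6.999 to 12.3%) of the regions without RXRG, below the 19.3% (17.4 to 21.5%) of those with YY1 and neither receptor.

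**Figure D3:**
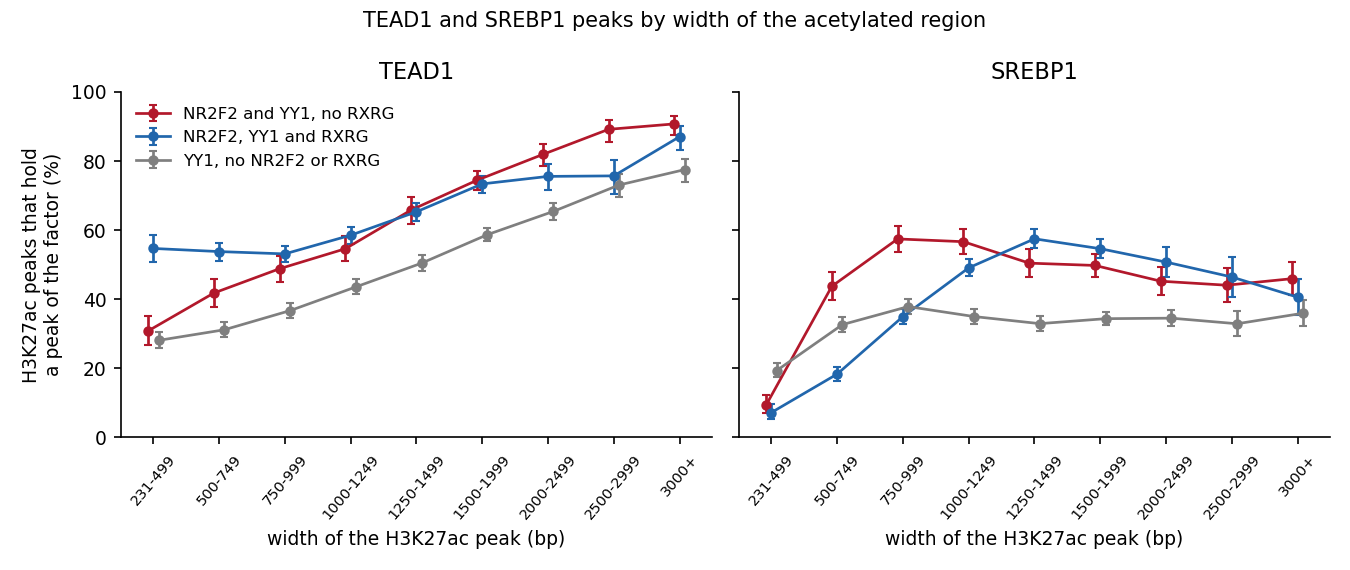
Percentage of regions with a TEAD1 peak (left) or an SREBP1 peak (right) by width of the H3K27ac peak in bp, with 95% Wilson intervals. The red line (NR2F2 and YY1 without RXRG) starts at 30.8% and ends at 90.8% for TEAD1, and for SREBP1 it peaks at 57.5% in the class of 750 to 999 bp, where the blue line (with RXRG) is at 35.0% and the grey line (YY1 with neither receptor) at 37.9%.

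The shares of TEAD1 and SREBP1 also varied with the width of the YY1 peak, a split chosen after seeing the data. Over 4 width classes of about equal size in the whole YY1 list, TEAD1 was present in 25.0, 48.7, 65.1 and 81.0% of the regions without RXRG, by the width of their widest YY1 peak. With RXRG the shares were 37.1, 55.3, 60.0 and 72.5%, and with YY1 and neither receptor 25.5, 41.5, 58.4 and 72.5%. SREBP1 was present in 10.1, 30.3, 52.3 and 60.7% of the regions without RXRG. With RXRG it was in 3.98, 13.5, 40.4 and 60.4%, and with YY1 and neither receptor in 21.9, 29.6, 35.8 and 49.0%. At YY1 peaks of 440 to 671 bp SREBP1 was thus found in 52.3% of regions without RXRG (49.9 to 54.7%), the highest of the 3 classes at that width. At YY1 peaks of 672 bp and more, regions without and with RXRG had overlapping intervals for SREBP1, at 60.7% (58.6 to 62.8%) without RXRG and 60.4% (58.9 to 61.9%) with it.

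Within each of the 4 YY1 width classes, the difference in TEAD1 from regions with YY1 and neither receptor was smaller than the 15.1 points found over all widths. At the narrowest YY1 peaks TEAD1 was in 25.0% (21.9 to 28.5%) of regions with NR2F2 and YY1 without RXRG and 25.5% (24.0 to 27.1%) of those with YY1 and neither receptor, where the intervals overlap. At the widest it was in 81.0% (79.3 to 82.7%) with NR2F2 and 72.5% (70.7 to 74.3%) with YY1 and neither receptor. SREBP1 did not follow TEAD1 in this. Its 4 shares were 10.1, 30.3, 52.3 and 60.7% with NR2F2 and no RXRG, against 21.9, 29.6, 35.8 and 49.0% with neither receptor. YY1 peaks were wider in the regions with NR2F2 and no RXRG than where both receptors were missing, at medians of 564 and 409 bp. Whether YY1 width accounts for any part of these differences was not tested.

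**Figure D4:**
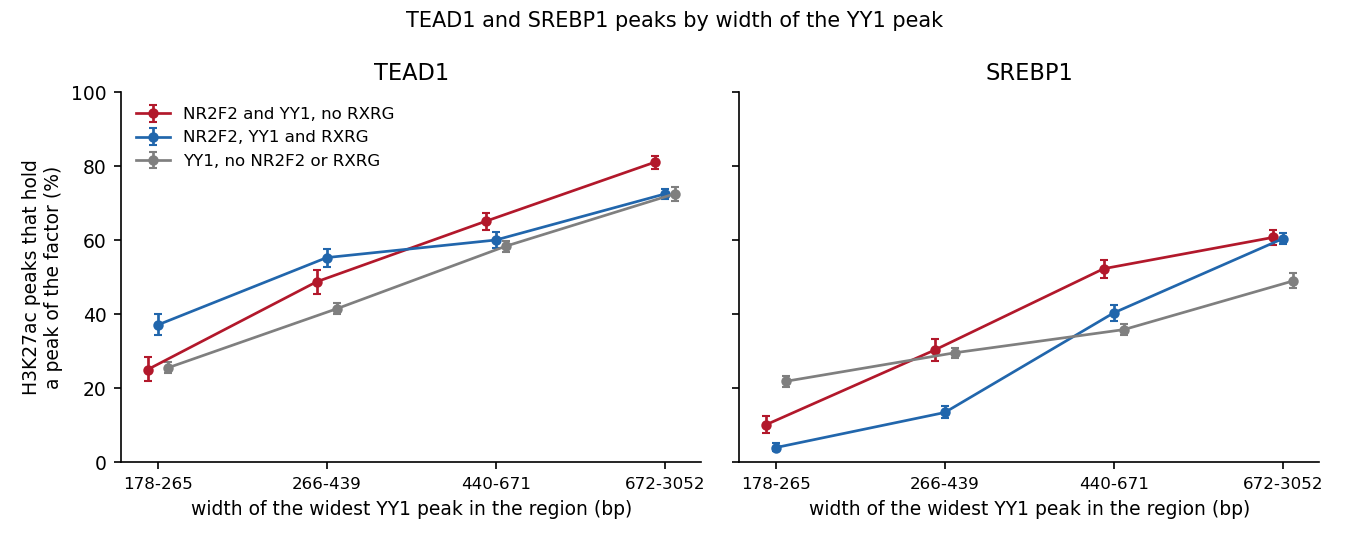
Percentage of regions with a TEAD1 peak (left) or an SREBP1 peak (right) by width in bp of the widest YY1 peak in the region, in 4 classes, with 95% Wilson intervals. For SREBP1 the red line (NR2F2 and YY1 without RXRG) lies above the blue line (with RXRG) in the first 3 classes and meets it in the last, at 60.7 and 60.4%.

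The width of the NR2F2 peak gave another picture, also in a split chosen after seeing the data. Over 4 width classes of about equal size in the whole NR2F2 list, SREBP1 was present in 43.7, 45.6, 45.5 and 50.2% of the regions without RXRG, from the narrowest NR2F2 peaks to the widest. With RXRG it was present in 51.7, 47.4, 40.0 and 37.9%, so that the share was lower at wider NR2F2 peaks with RXRG and not so without it. At NR2F2 peaks of 436 bp and more, the interval was 47.6 to 52.8% without RXRG, against 36.5 to 39.2% with it. At the narrowest, of 203 to 229 bp, it was 40.8 to 46.6% without RXRG, against 47.8 to 55.5% with it. TEAD1 was present in 57.2, 63.2, 60.5 and 71.0% without RXRG and in 43.6, 52.2, 56.9 and 68.9% with it.

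NR2F2 peaks were smaller where RXRG was missing, a description only, since RXRG chose the regions. Their median width was 313 bp (5514 peaks), close to the 303 bp of the whole NR2F2 list, against 447 bp with YY1 and RXRG. Among all acetylated regions with NR2F2 and YY1, RXRG was missing in 58.4% of the narrowest of 4 NR2F2 width classes (203 to 275 bp) and in 14.5% of the widest (583 bp and more). The width of the YY1 peak gave no such steady order, with 36.5, 44.7, 40.9 and 26.9% lacking RXRG from narrow to wide. By the width of the acetylated peak, RXRG was missing in 33.7, 30.5, 32.9 and 51.8%. RXRG was thus most often missing in the longest acetylated regions (1713 bp and more), with no steady order over the shorter classes. The reason was not tested. Weak RXRG binding under the threshold of its list cannot be told apart from its absence, since the list holds no signal.

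The nearest RXRG peak lay a median of 12122 bp from the edge of the acetylated peak (quartiles 5406 and 27251 bp). It lay within 500 bp in 73 of the 5278 regions (1.38%) and within 10 kb in 2280 (43.2%). These shares were 1.16 and 39.4% for regions with YY1 and neither receptor, and 1.66 and 38.6% for acetylated regions with none of NR2F2, YY1 and RXRG. For regions with YY1 and neither receptor the median was 14192 bp, and for those with NR2F2 and neither YY1 nor RXRG it was 21911.5 bp. In 10 of the 5278 regions the NR2F2 peak ran past the acetylated peak and met RXRG there, and in 12 the YY1 peak did.

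When acetylated peaks no more than 10 kb apart were joined into stitched regions, 1248 of the 5278 (23.6%, 22.5 to 24.8%) were alone in their stitched region, against 37.0% (36.0 to 38.0%) of the regions with RXRG, 22.3% (21.6 to 23.0%) of those with YY1 and neither receptor, an overlapping interval, and 27.6% of all H3K27ac peaks. Stitched regions of 10 or more H3K27ac peaks held 19.6% (18.5 to 20.7%) of them, against 11.6% (11.0 to 12.3%) of the regions with RXRG, 17.0% (16.4 to 17.7%) of those with YY1 and neither receptor and 14.9% of all H3K27ac peaks. In 43.7% (42.3 to 45.0%) another acetylated peak of the same stitched region did hold RXRG, against 33.4% of the regions with RXRG, 38.7% of those with YY1 and neither receptor and 35.9% of all H3K27ac peaks. These shares are not adjusted for the number of neighbours. The median number of H3K27ac peaks in the stitched region was 4 without RXRG and 2 with it. It was 3 with YY1 and neither receptor and 3 over all H3K27ac peaks. The 5278 regions fell in 4517 stitched regions, of which 3944 held only 1 of them and 139 held 3 or more. Another of the 5278 lay in the same stitched region for 25.3% of them. This was so for 16.4% of the regions with RXRG, 21.8% of those with YY1 and neither receptor and 22.0% of all H3K27ac peaks, again without adjustment for neighbours. The most in a single stitched region was 7, among 17 H3K27ac peaks in 107 kb on chromosome 13 (114466416 to 114573596, build rn5), of which 3 held RXRG.

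Every one of the 5278 regions lay on a placed chromosome. They made up between 4.36 and 6.69% of the H3K27ac peaks of each of the 20 autosomes (median 5.34%), with chromosome 10 the highest, and 4.34% on chromosome X. Their share among regions with NR2F2 and YY1 was between 32.1 and 45.1% on the autosomes and 29.2% on chromosome X. The SREBP1 share was above that of regions with YY1 and neither receptor on 20 of 20 autosomes, and above that of regions with RXRG on 17 of 20. For TEAD1 the counts were 20 of 20 and 12 of 20. Chromosome X, with few regions, had another order than the autosomes for SREBP1. There it was present in 35.7% of the 98 regions with NR2F2 and YY1 without RXRG and in 14.7% of the 238 with RXRG, against 46.8% of the 293 with YY1 and neither receptor.

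**Figure D5:**
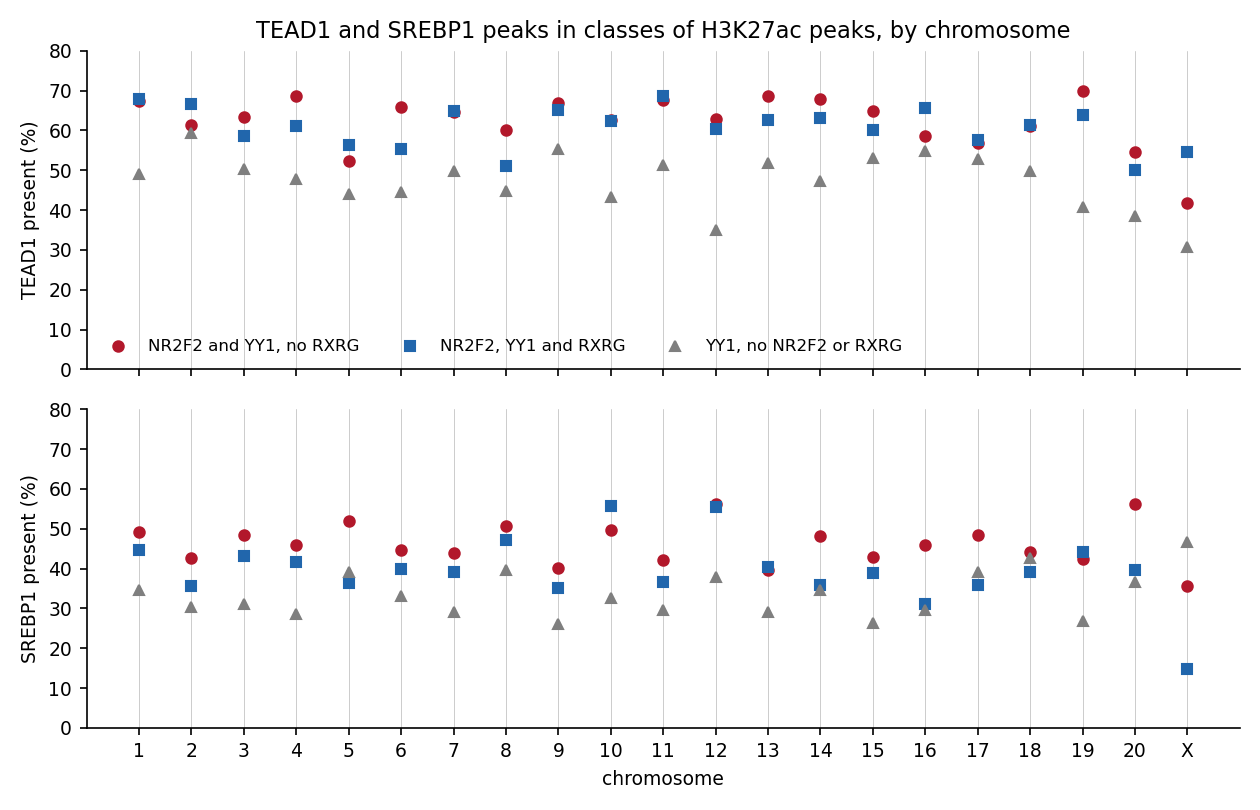
Percentage of regions with a TEAD1 peak (top) or an SREBP1 peak (bottom) on each chromosome, for regions with NR2F2 and YY1 without RXRG (red circles), with NR2F2, YY1 and RXRG (blue squares) and with YY1 and neither receptor (grey triangles). Each point is 1 class on 1 chromosome; red lies above grey on all 20 autosomes in both panels, and below grey for SREBP1 on chromosome X, at 35.7 against 46.8%.

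Single regions show these arrangements, named by position on build rn5, counted from 1, because no gene annotation of that build was used here. The longest was at chromosome 9, 37839259 to 37847057 (7799 bp). NR2F2 peaks of 226 and 309 bp lay near its 2 ends, at -2784.5 and 3479 bp from the centre, and each was inside a YY1 peak (752 and 559 bp) that also carried a TEAD1 peak. The remaining YY1 peak, of 207 bp, had neither. The second longest, at chromosome 7, 12946625 to 12954058 (7434 bp), was of the rarer kind. Its single NR2F2 peak (230 bp) touched neither of its 2 YY1 peaks, and the midpoints were at least 1026.5 bp apart. The other 3 of the 5 longest lay on chromosome 11 (74452272 to 74459271), chromosome 6 (20929207 to 20935861) and chromosome 7 (11328060 to 11334253). TEAD1 was present in all 5 and SREBP1 in 2. Among all regions without RXRG of 3000 bp and more, the shares were 90.8 and 46.0%.

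The widest NR2F2 peak that overlapped YY1 in a region without RXRG measured 1323 bp, at chromosome 16, 1988184 to 1989506. It lay beside a YY1 peak of 1368 bp and a TEAD1 peak of 660 bp, and the nearest RXRG peak was 17330 bp from the acetylated peak. On chromosome 12, an NR2F2 peak of 1282 bp (20515981 to 20517262) lay under a YY1 peak of 1667 bp, a TEAD1 peak of 1359 bp and an SREBP1 peak, so that all 4 factors met there and RXRG was 1687 bp away. The region at chromosome 2, 281142551 to 281143840, was unlike these. An NR2F2 peak of 1246 bp filled nearly all of its 1290 bp, its YY1 peak was only 223 bp wide, TEAD1 and SREBP1 were both missing, and the nearest RXRG peak was 97420 bp away. The others among the widest were 1274 bp on chromosome 8 (128869072 to 128870345) and 1210 bp on chromosome 16 (19860334 to 19861543), both with TEAD1.

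Only 3 regions held 3 NR2F2 peaks. At chromosome 3, 13979321 to 13980927, all 3 (203, 203 and 421 bp) overlapped a single YY1 peak of 1390 bp. At chromosome 2, 243236165 to 243241681, a YY1 peak of 1323 bp covered part or all of 2 of them, and the remaining 203 bp peak, at -1270 bp from the centre, lay away from YY1. At chromosome 1, 187453549 to 187455153, 2 of the 3 overlapped a YY1 peak and a TEAD1 peak each. All 3 regions held TEAD1 and none held SREBP1, beside shares of 63.4 and 46.4% over the 5278 regions, and 3 are too few to set against these. The longest region with neither TEAD1 nor SREBP1 was at chromosome 7, 11592848 to 11597427 (4580 bp), with an NR2F2 peak of 856 bp that began at the same base as a YY1 peak of 994 bp. The next were 4309 bp on chromosome 18 (70691210 to 70695518) and 4145 bp on chromosome 10 (102890679 to 102894823). In the last of these the NR2F2 and YY1 peaks did not overlap.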

How the data were processed

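Each deposited file lists peaks as chromosome, start and end, so the values are positions in bp. The SREBP1 list also has a score, which is 1 in every peak and was not used. Per the submitters' processing notes, the tools were bcl2fastq 2.20.0.422, Bowtie2, MACS2, bedtools and deepTools and the build rn5. Their roles, the peak thresholds, the controls used in peak calling and the read depth are not stated in the labels or files. A different threshold for RXRG would move regions into or out of the class described.

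Members were chosen, and the lists and splits drawn up, with earlier results of these data known. Overlaps of at least 1 bp were counted in Python 3.11.15 with NumPy 2.4.6, SciPy 1.17.1 and pandas 2.3.3, and checked against bedtools and on simulated data. Shares carry 95% Wilson intervals, and differences of shares a normal interval. Distances run between midpoints or edges. No test was made, since there is 1 library per target. Regions named in the text are the 5 longest, the 5 with the widest NR2F2 peak overlapping YY1, the 3 with the most NR2F2 peaks and the 3 longest with neither TEAD1 nor SREBP1. Width took the place of a score. Gene lists, planned for an annotation of rn5, were not used.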

Additional observations from a re-analysis of the deposited data

How the results depend on the processing

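The 9 results were recomputed under 7 alternatives each. Of the 63 values, 47 stayed within the interval of the reported value (counts within 1.5 times). The 4 differences between classes were added after seeing the data, and 27 of their 28 values stayed above 0. For TEAD1 against regions with RXRG, being above 0 says little. Its interval held 0 as reported and under every alternative but that of wider NR2F2 and YY1 peaks (3.08 to 7.44). When a shared stretch had to cover 50% or more of the shorter peak, SREBP1 was in 42.0% of the regions, 9.28 points above regions with RXRG, and NR2F2 overlapped YY1 in 93.4%. With factor midpoints inside the H3K27ac peak (and NR2F2 midpoints inside YY1), the values were 42.0%, 9.32 points and 91.2%. With NR2F2 and YY1 peaks of at least median width, 2148 regions remained, with TEAD1 in 76.8%, SREBP1 in 58.6%, direct overlap in 97.7% and a median length of 1542.5 bp. TEAD1 was then 5.26 points above regions with RXRG and 12.2 above those with YY1 and neither receptor, and SREBP1 15.3 above the last. With only RXRG peaks of at least median width, the class grew from 5278 to 6622 regions, with a median length of 1307 bp. TEAD1 was then -0.051 points from regions with RXRG, so that its order turned, with an interval from -1.65 to 1.55. Extending RXRG by 500 bp and joining H3K27ac peaks within 1 kb moved none of the 9. Keeping placed chromosomes left all 9 unchanged, because every region chosen lay on one. Those 9 of the 47 values thus give no measure of stability. The cause of each shift was not tested. Read depth is unknown and limits how far a missing peak can be read as missing binding. No paired analysis was possible because there is a single library per target.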

Other observations

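Each SREBP1 peak has a name that ends in a number, whose meaning neither labels nor files state. Of the 2489 SREBP1 peaks in regions with NR2F2 and YY1 without RXRG, 54.5% (52.6 to 56.5%) had numbers in the lowest 25% of their chromosome. The share was 59.3% (57.7 to 60.8%) in regions that also held RXRG and 38.1% (36.7 to 39.5%) in those with YY1 and neither receptor. By construction it was 25.0% over the whole SREBP1 list.

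The share of SREBP1 by TEAD1 was also taken within the 4 length classes of the acetylated peak, from narrow to wide. Without RXRG, SREBP1 was in 6.67, 44.5, 65.1 and 49.2% of the regions that held TEAD1 and in 2.81, 29.5, 48.8 and 42.3% of those that did not. With RXRG the shares were 7.75, 15.7, 45.8 and 57.9% with TEAD1 and 0, 16.4, 35.5 and 40.4% without it, where the 0 is of 101 regions and its Wilson interval reaches 3.66%. With YY1 and neither receptor they were 16.5, 29.0, 34.7 and 36.2% with TEAD1 and 13.5, 30.1, 37.7 and 30.6% without it. The share was thus above that without TEAD1 in all 4 classes without RXRG, in 3 of 4 with RXRG and in 2 of 4 with YY1 and neither receptor. These splits were chosen after seeing the data, and no test was made of them.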
